A study of Mus musculus with 4 samples.

Results

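The SLC25 family holds carrier proteins, most of them of the mitochondrial inner membrane, and its messenger RNAs were compared between fasted and refed mouse liver on 4 two-colour arrays. All spots whose gene name began with Slc25a and a number were taken, except those of Slc25a20, the carnitine-acylcarnitine carrier, which was not analysed here. This gave 58 spots, 49 probes and 41 genes out of 39429 probes with 31829 gene names on the array. Of these, 40 probes of 33 genes were kept, out of 19719 kept in all. A kept probe had a signal well above background on all 4 arrays in at least one condition and a ratio on every array after flagged and high-background spots were left out. These are called measured probes below. The other 9 probes, the only ones for 8 of the genes, are named below without a fold.

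The mice were male C57BL/6J animals aged 8 to 12 weeks, with no transgene or deletion in the labels. Every animal went 24 h without food. The 4 fasted livers were taken at that point, and the 4 refed livers were taken after the mice had eaten for 2 h, so both groups had been through the same fast and the comparison is of a fast with the first hours after it, not with free feeding. Each array held 1 fasted and 1 refed liver. Fasted RNA carried the red dye Cy5 on replicates 1 and 2 and the green dye Cy3 on replicates 3 and 4, and all ratios below run as fasted over refed on a log2 scale, where 0 is no difference and 1 is a doubling.

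A typical SLC25 carrier moves a particular set of small molecules through a membrane that is otherwise closed to them, usually by exchanging one molecule for another. The proteins are made in the cytosol from nuclear genes, and most of them are inserted into the inner membrane by the TIM22 route. In liver they link cytosolic and mitochondrial steps of gluconeogenesis, the urea cycle, fatty acid oxidation and haem synthesis, since the steps of each of those pathways are split between both compartments.

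Of the 40 measured SLC25 probes, 6 were called higher and 2 were called lower in fasted liver, where a call needed a limma adjusted p below 0.10 together with a ratio of 1.5-fold or more. These 8 probes belonged to 7 genes. Slc25a25, Slc25a34, Slc25a22, Slc25a33 and Slc25a32 were higher, and Slc25a37 and Slc25a38 were lower. Over all measured probes, 335 (1.7%) were called higher and 409 (2.07%) were called lower by the same rule. Without the fold limit, 14 SLC25 probes passed the adjusted p (35%), 10 of them higher and 4 lower, where 10.8% of all measured probes passed. With a dye term in the fit these were 20 SLC25 probes (50%) and 26.1% of all measured probes, and the SLC25 calls remained 6 higher and 2 lower. The probes that passed only with the dye term were those of Slc25a4, Slc25a12, Slc25a15 and Slc25a17, the uncalled probe of Slc25a37 and the dimmer probe of Slc25a46. Below, whether a probe passed refers to the fit without a dye term unless stated. The median log2 ratio of the SLC25 probes was 0.08, with quartiles of -0.09 and 0.35, and that of all measured probes was -0.00099, with quartiles of -0.11 and 0.11. Ratios kept one sign on all 4 arrays for 21 of the 40 SLC25 probes (52.5%) and for 29.6% of all measured probes. Only probes that passed the filter on dim signals enter these counts, among them 1 probe of Slc25a46 that passed through the fasted livers only, and the family was not tested as a set.

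**Figure D1:**
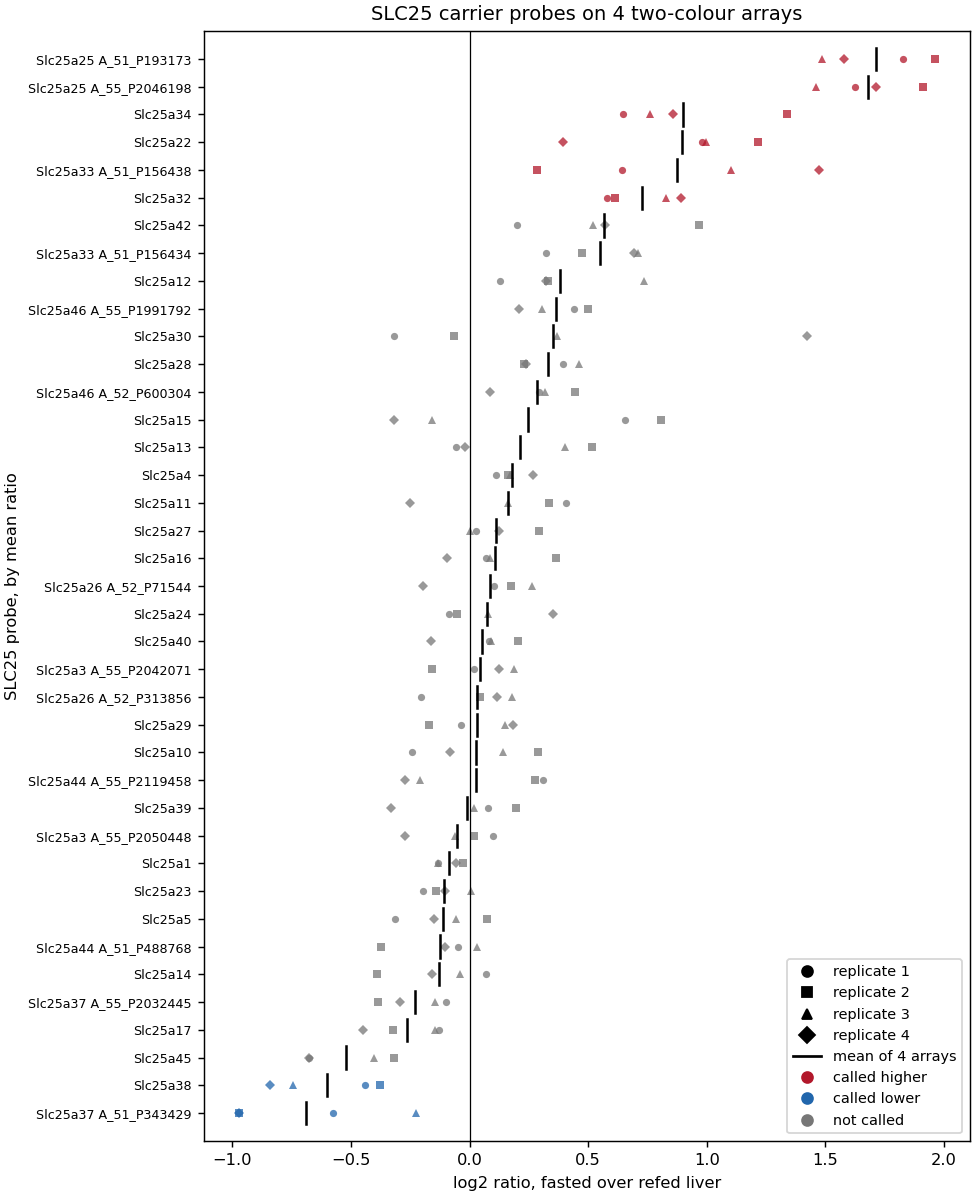
The log2 ratio of fasted over refed liver (x axis) for 39 of the 40 measured SLC25 probes (y axis, sorted by mean), with 1 symbol per array and a black bar at the mean of the 4 arrays. Both Slc25a25 probes lie between 1.46 and 1.96 on every array and have the highest means, whereas Slc25a30 and Slc25a15 spread over both signs.

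The tissue was checked against marker genes of the cell types a liver sample could hold. All 8 hepatocyte marker probes were measured, with median ratios of 0.26, 0.41, -0.05 and -0.03 on replicates 1 to 4. Replicates 1 and 2, with the higher medians, are the arrays with fasted RNA in Cy5. Whether the dye or the tissue set these medians apart was not tested. Of the 8 hepatocyte probes, that of Tat, tyrosine aminotransferase, was called higher (mean 0.84 ± 0.46, limma adjusted p = 0.0452), and 3 of the 8 had an unadjusted limma p under 0.05. Erythroid marker probes (6 of 8 measured) had median ratios of 2.21 and 2.41 on replicates 1 and 3, and -0.26 and 0.30 on replicates 2 and 4, so that the fasted livers of 2 arrays carried more haemoglobin RNA than their refed partners. Pancreatic acinar marker probes (3 of 12 measured) had a median ratio of -3.79 on replicate 3 and between -0.05 and 0.04 on the other arrays. None of 7 skeletal muscle probes was measured. The 2 of 7 adipose probes that were measured, for Fabp4 and Cfd, had median ratios of -0.07, 0.43, -0.89 and 0.40 on replicates 1 to 4, with Cfd at -1.37 on replicate 3, and the probe of the defining marker Adipoq was not measured. The 7 of 11 immune probes that were measured had medians of 0.20, -0.24, 0.27 and -0.03. In whole liver, fewer cells of one type and less RNA per cell cannot be told apart. The part of these other cells in the SLC25 ratios was not tested. Calls are also given for replicates 2 and 4 alone, where the erythroid and pancreatic ratios were small but the adipose ratios were not, a choice made after the marker values were seen. On these 2 arrays 5 SLC25 probes were called higher and 1 was called lower, and over all measured probes 251 (1.27%) and 338 (1.71%). The 5 were both probes of Slc25a25 with Slc25a34, Slc25a32 and Slc25a42, the last of which (ratio 0.77, limma adjusted p = 0.0885) was not called on all 4 arrays, and the lower one was Slc25a37.

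Carriers of adenine nucleotides and phosphate supply and drain the ATP pool of the matrix. Of 8 measured probes in this group, the 2 of Slc25a25 were called higher and none was called lower. Slc25a25 encodes a calcium-regulated carrier that exchanges ATP-Mg for phosphate and so alters the total adenine nucleotide content of the matrix. Its probe A_51_P193173 (mm9, chr2:32270275-32270334, minus strand) gave log2 ratios of 1.83, 1.96, 1.49 and 1.58 on replicates 1 to 4, a mean of 1.71 ± 0.22 (SD, n = 4 arrays), or 3.28-fold, with a limma adjusted p of 0.0021. The second probe, A_55_P2046198 (chr2:32270490-32270549), lies close to the first and gave ratios of 1.63, 1.91, 1.46 and 1.72, a mean of 1.68 ± 0.19 and a limma adjusted p of 0.0019. On the normalized log2 scale of single channels, the first probe lay between 12.49 and 12.85 in the 4 fasted livers and between 10.53 and 11.27 in the 4 refed livers. No fasted liver overlapped a refed one on either probe, and only 24 and 28 of all measured probes had a higher mean ratio.

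The close relatives of Slc25a25 were not called. Slc25a23 and Slc25a24 encode the other main calcium-regulated ATP-Mg/phosphate carriers. Slc25a23 gave a mean log2 ratio of -0.11 ± 0.08 and Slc25a24 of 0.07 ± 0.20, with limma adjusted p of 0.457 and 0.736. Within an array, the Slc25a23 ratio minus the Slc25a25 ratio ran from -2.10 to -1.48 over the 4 arrays, and the Slc25a24 ratio minus the Slc25a25 ratio from -2.01 to -1.23. The exact sign-flip permutation test over 4 arrays gives p = 0.125 for each of these differences, which is the smallest p that 4 arrays allow, and 0.161 after Benjamini-Hochberg adjustment over the 9 pairs of related carriers compared.

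Slc25a4 and Slc25a5 encode ADP/ATP carriers, which export the ATP made in the matrix. Slc25a4 is printed 10 times on each array. Its mean ratios were 0.11, 0.16, 0.17 and 0.27, and the SD among the 10 spots of one array ran from 0.118 to 0.180. The SD of the 4 array means was 0.06. Slc25a5 had a mean ratio of -0.11 ± 0.16. Neither passed, with limma adjusted p of 0.211 and 0.535, and Slc25a4 exceeded Slc25a5 on all 4 arrays by a mean of 0.29 ± 0.16 (exact permutation p = 0.125, adjusted 0.161). The phosphate carrier Slc25a3 had 2 probes of opposite sign, at 0.04 ± 0.15 and -0.05 ± 0.16, both well inside their spread.

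**Figure D2:**
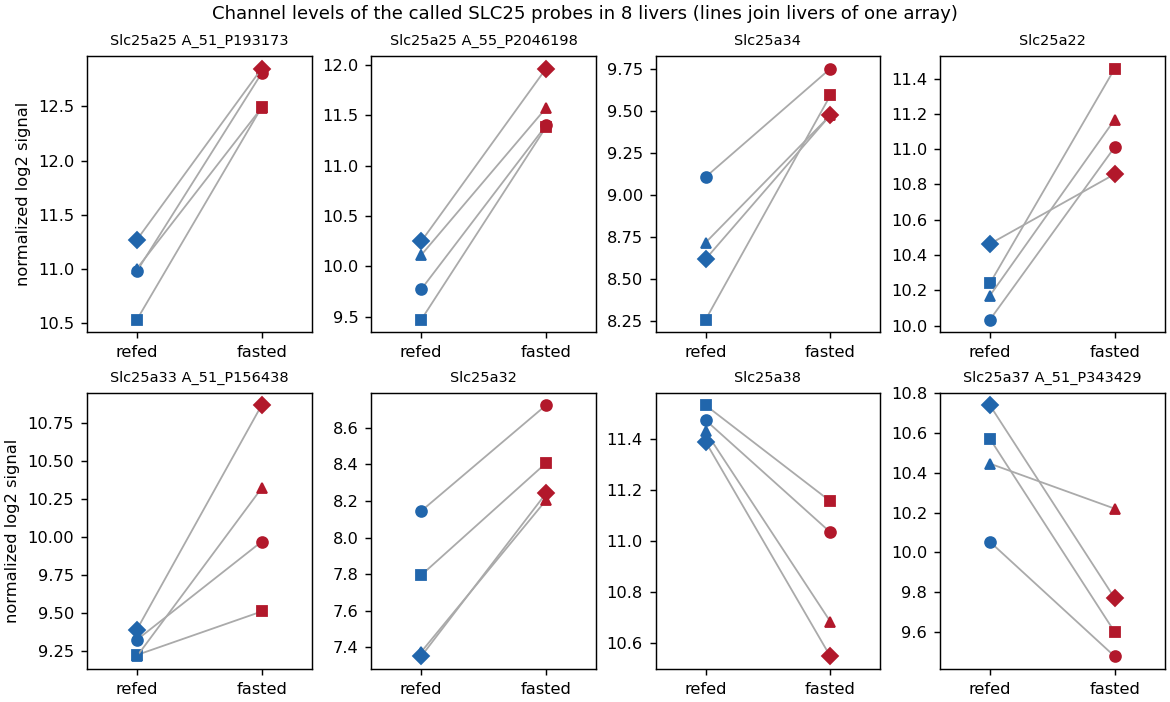
Normalized log2 signal (y axis, scale differs between panels) of the 8 called SLC25 probes in the 4 refed (blue) and 4 fasted (red) livers. Circle, square, triangle and diamond are replicates 1 to 4, and each line joins the livers of 1 array. Fasted and refed livers overlap for Slc25a37 and in no other panel.

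A promoter of Slc25a25 holds the full cAMP response element (CRE), the sequence bound by CREB, a transcription factor that acts downstream of glucagon and whose role in fasting was the subject of the study. RefSeq promoter windows (GRCm38.p6, from 250 bases before to 50 after a transcript start) were found for 31 of the 41 genes and were searched for TGACGTCA, the full element, for the same octamer with at most 1 mismatch, and for the shorter TGACG on both strands, which also lies in each full element. The full element occurred in windows of 2 SLC25 genes, Slc25a25 and Slc25a36 (6.45%), and of 549 of all 27025 genes (2.03%). The octamer with at most 1 mismatch occurred in 8 of the 31 (25.8%) and in 14.2% of all genes, and TGACG in 10 (32.3%) and in 23.0%. Among the called genes, windows were found for Slc25a22, Slc25a25, Slc25a33, Slc25a34 and Slc25a38. Slc25a25 held the full element, Slc25a33 held the octamer with 1 mismatch, and these letters did not occur in the windows of the other 3. The bases before the start are shown for the 2 called genes with a match, chr2:32424067-32424316 for Slc25a25 (1 of its 3 windows) and chr4:149774268-149774517 for Slc25a33, both on the minus strand and written 5′ to 3′. Capitals mark the octamer, whose first base lies 150 bases before the start in Slc25a25 and 31 bases before it in Slc25a33.
Slc25a25: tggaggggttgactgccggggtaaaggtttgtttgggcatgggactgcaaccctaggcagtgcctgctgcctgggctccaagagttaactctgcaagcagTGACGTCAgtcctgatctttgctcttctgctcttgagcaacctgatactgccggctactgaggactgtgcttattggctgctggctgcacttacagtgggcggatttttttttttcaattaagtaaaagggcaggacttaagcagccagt
Slc25a33: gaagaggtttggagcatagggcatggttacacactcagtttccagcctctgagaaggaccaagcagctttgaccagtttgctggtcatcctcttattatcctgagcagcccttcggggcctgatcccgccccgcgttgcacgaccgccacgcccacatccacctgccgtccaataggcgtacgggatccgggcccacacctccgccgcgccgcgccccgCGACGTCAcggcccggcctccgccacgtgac
A match of letters is a description of the window and no measurement of binding. The paper reports CREB bound to its sites in both states, with most sites at genes that did not change. It proposes that a CRE, even a bound one, does not by itself tell whether a gene responds to fasting.

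Carriers of amino acids feed the urea cycle, the malate-aspartate shuttle and haem synthesis. Of 8 measured probes, 1 was called higher and 1 lower. Slc25a22 encodes a carrier that brings glutamate and a proton into the matrix. Its probe (chr7:148615651-148615710, minus strand, mm9) gave ratios of 0.978, 1.22, 0.998 and 0.395, a mean of 0.90 ± 0.35 or 1.86-fold, and a limma adjusted p of 0.0215. Replicate 4 had less than the other arrays, and the groups did not overlap, with fasted livers between 10.86 and 11.46 and refed livers between 10.03 and 10.46. On replicates 2 and 4 alone the mean ratio was 0.81 and the limma adjusted p was 0.148.

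Slc25a38 encodes the carrier that takes glycine into mitochondria for the first step of haem synthesis. Its probe (chr9:120033376-120033435, plus strand) gave ratios of -0.44, -0.38, -0.74 and -0.84, a mean of -0.60 ± 0.23, and a limma adjusted p of 0.0285. The change, 1.52-fold, lay just past the fold limit. All 4 fasted livers were below all 4 refed livers. Without replicate 3 the ratio was -0.55 (limma adjusted p = 0.125) and without replicate 4 it was -0.52 (adjusted p = 0.0956), and in both cases the probe was no longer called. Replicates 3 and 4 are the arrays with fasted RNA in Cy3, and they gave the lower ratios. The dye term was 0.19 (limma adjusted p = 0.105). In the fit with a dye term the probe was still called (limma adjusted p = 0.0032).

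The other amino acid carriers were not called. Slc25a12 and Slc25a13 encode the aspartate-glutamate carriers aralar and citrin, citrin being the main form in liver. Slc25a12 had ratios of 0.13, 0.33, 0.74 and 0.32 (mean 0.38 ± 0.25, limma adjusted p = 0.107) and Slc25a13 had ratios of -0.06, 0.52, 0.40 and -0.02 (mean 0.21 ± 0.29, adjusted p = 0.382). The difference between them had one sign on 3 of 4 arrays. Slc25a15, the ornithine carrier of the urea cycle, had ratios of 0.65 and 0.81 on the arrays with fasted RNA in Cy5 and of -0.16 and -0.32 on those with fasted RNA in Cy3. A dye term fitted to the same ratios was 0.48 for Slc25a15 (limma adjusted p = 0.0262), and its fasting ratio had a mean of 0.25 ± 0.57. In the fit without a dye term that ratio did not pass (limma adjusted p = 0.567), and in the fit with one it passed (adjusted p = 0.0502) and stayed under the fold limit. The 2 probes of Slc25a44, a carrier of branched-chain amino acids, had means of 0.03 ± 0.31 and -0.12 ± 0.18, of opposite sign and inside their spread. On the first of them the sign differed between dye orientations, as for Slc25a15 (dye term 0.27, limma adjusted p = 0.0547).

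Carriers of cofactors, nucleotides and glutathione formed the largest group, with 11 measured probes, of which 2 were called higher and none was called lower. Slc25a33 encodes a carrier of pyrimidine nucleotides, the building blocks of mitochondrial DNA and RNA. Its probe A_51_P156438 (chr4:149118713-149118772, minus strand, mm9) gave ratios of 0.64, 0.29, 1.10 and 1.47, a mean of 0.88 ± 0.52 or 1.84-fold, and a limma adjusted p of 0.0531. The second probe, A_51_P156434 (chr4:149123432-149126565), gave ratios of 0.32, 0.47, 0.71 and 0.69, a mean of 0.55 ± 0.19 and a limma adjusted p of 0.0273. Both probes were higher on all 4 arrays and the groups overlapped on neither, but the second was under the fold limit and not called. It was called in 7 of 21 alternatives, among them the deposited log2 ratios (0.65, limma adjusted p = 0.0137). The 7 include the fit without the fold limit, in which its call was certain. On the called probe, the arrays with fasted RNA in Cy3 gave the larger ratios, with a dye term of -0.41 (limma adjusted p = 0.0599). Its call was lost without replicate 3 (ratio 0.80, limma adjusted p = 0.187), without replicate 4 (0.68, adjusted p = 0.124) and on replicates 2 and 4 alone (0.88, adjusted p = 0.195).

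Slc25a32 encodes a carrier of folate that has also been linked to FAD. Its probe (chr15:38926713-38926772, minus strand) gave ratios of 0.58, 0.61, 0.83 and 0.89, a mean of 0.73 ± 0.16 or 1.66-fold, and a limma adjusted p of 0.0117. The 4 arrays were close to each other, and the lowest fasted liver (8.20) was just above the highest refed liver (8.15). It was called with each array left out in turn.

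Within the same group, Slc25a42, a carrier of coenzyme A, had ratios of 0.20, 0.97, 0.52 and 0.57, a mean of 0.57 ± 0.31 and a limma adjusted p of 0.0575. It passed the adjusted p and fell short of the fold limit at 1.48-fold, whereas its relative Slc25a16 had a mean of 0.11 ± 0.19 and did not pass. The Slc25a16 ratio minus the Slc25a42 ratio was below 0 on all 4 arrays, from -0.67 to -0.13 (exact permutation p = 0.125, adjusted 0.161). Slc25a39 and Slc25a40, which are linked to mitochondrial glutathione, had means of -0.01 ± 0.23 and 0.05 ± 0.15, with limma adjusted p of 0.972 and 0.793. The measured probes for Slc25a17 and Slc25a26 did not pass.

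**Figure D3:**
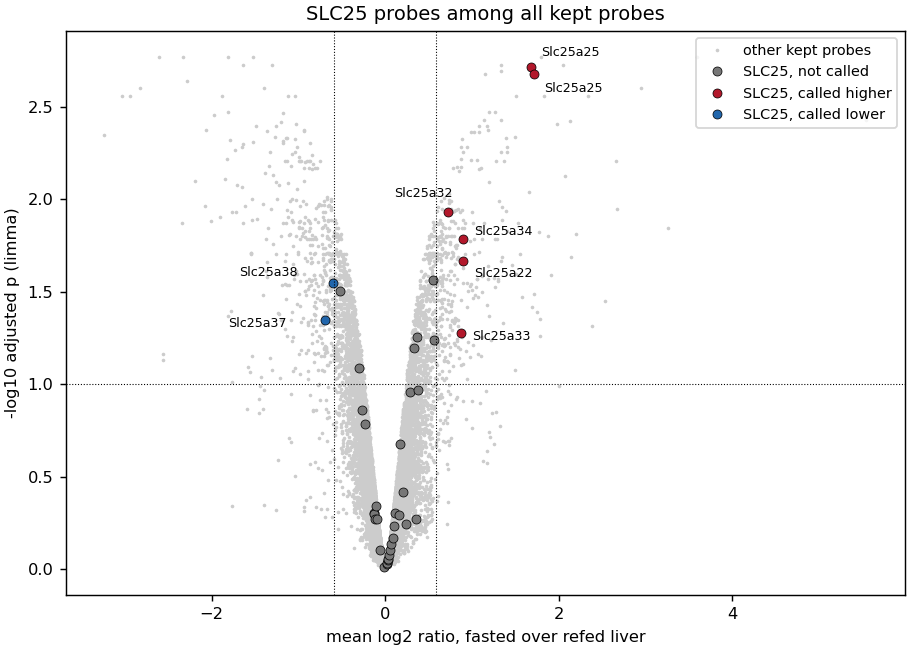
Mean log2 ratio of fasted over refed liver (x axis) against -log10 of the limma adjusted p (y axis) for all 19719 measured probes in grey and the 40 SLC25 probes in colour, with dotted lines at 1.5-fold and at an adjusted p of 0.10. The 2 Slc25a25 probes sit near the top of the plot, and 6 further SLC25 probes lie above the horizontal line but inside the fold limits.

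Iron carriers bring iron into the matrix for haem and iron-sulphur clusters. Slc25a37 encodes mitoferrin 1, the form of erythroid cells, and Slc25a28 encodes mitoferrin 2, which is widely expressed. The Slc25a37 probe A_51_P343429 (chr14:69860020-69860079, minus strand) gave ratios of -0.58, -0.97, -0.23 and -0.97, a mean of -0.69 ± 0.36 or 1.61-fold lower, and a limma adjusted p of 0.0448. The second probe, A_55_P2032445 (chr14:69902797-69902856), gave -0.10, -0.39, -0.14 and -0.29, a mean of -0.23 ± 0.13 and a limma adjusted p of 0.163, and did not pass. Both probes were below 0 on all 4 arrays. On the called probe the highest fasted liver (10.22, replicate 3) was above the lowest refed liver (10.05, replicate 1), so the groups overlapped across arrays. Its call was lost without replicate 2 (ratio -0.59, limma adjusted p = 0.148) and without replicate 4 (-0.59, adjusted p = 0.143).

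Slc25a28 gave ratios of 0.39, 0.23, 0.46 and 0.24, a mean of 0.33 ± 0.12 and a limma adjusted p of 0.0634, which passed the adjusted p but not the fold limit. The ratios of both mitoferrins thus had opposite signs on each array. Slc25a28 exceeded the called Slc25a37 probe by 0.69 to 1.21 (mean 1.02 ± 0.25, exact permutation p = 0.125, adjusted 0.161). The other Slc25a37 probe, whose mean of -0.23 was nearer to 0, was not compared in this way. On replicates 1 and 3, where erythroid ratios were high, the called Slc25a37 probe was at -0.58 and -0.23. Its mean over replicates 2 and 4 alone, where erythroid ratios were small, was -0.97 (limma adjusted p = 0.0273). These 2 arrays were chosen after the marker values were seen. The other Slc25a37 probe was nearest to 0 on replicate 1 (-0.10). Slc25a38 was at -0.61 on replicates 2 and 4 (limma adjusted p = 0.187). The part of erythroid RNA in these ratios was not tested.

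**Figure D4:**
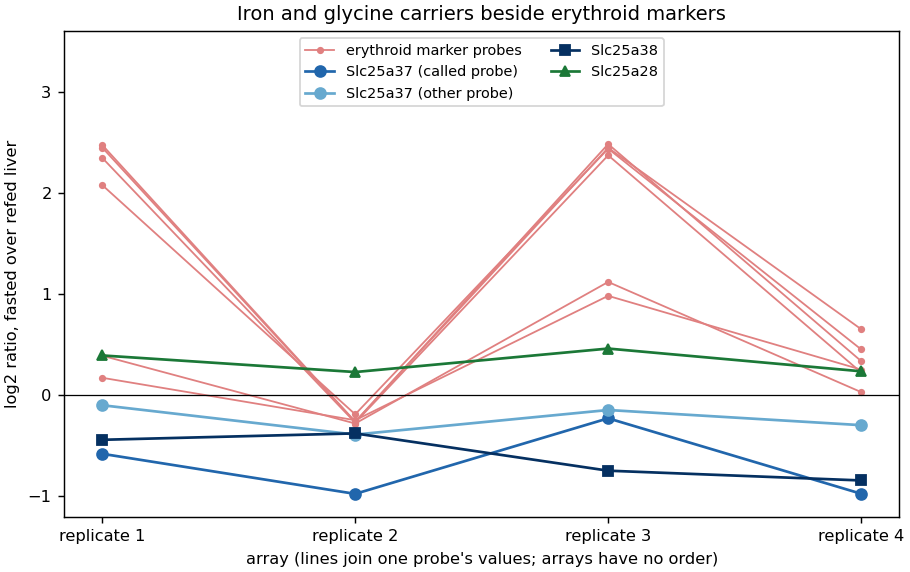
Log2 ratio of fasted over refed liver (y axis) on each of the 4 arrays (x axis) for both Slc25a37 probes, Slc25a38 and Slc25a28, beside the 6 measured erythroid marker probes in pale red. The haemoglobin probes are above 2 on replicates 1 and 3, while the called Slc25a37 probe is lowest on replicates 2 and 4.

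Carriers of carboxylates, which move citrate, malate, succinate and oxoglutarate, had no probe called by limma or by the SAM rule among 3 measured, and none at an unadjusted limma p under 0.05, which 21.6% of all measured probes had. Their means ran from -0.09 for the citrate carrier Slc25a1 through 0.03 for the dicarboxylate carrier Slc25a10 to 0.16 for the oxoglutarate-malate carrier Slc25a11. Slc25a11 had ratios of 0.41, 0.34, 0.16 and -0.25 (SD 0.29, limma adjusted p = 0.509), with replicate 4 of the other sign. The citrate carrier varied least, between -0.13 and -0.03 on the 4 arrays, with a limma interval of -0.26 to 0.08 at 95% confidence.

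Carriers related to the uncoupling proteins were not called either, by limma or by the SAM rule, and none of the 3 measured probes had an unadjusted p under 0.05. Slc25a30 had ratios of -0.32, -0.07, 0.37 and 1.42, an SD of 0.77 that exceeded its mean of 0.35, and a limma adjusted p of 0.533. The ratios were below 0 on the arrays with fasted RNA in Cy5 and above 0 on those with fasted RNA in Cy3, with a dye term of -0.55 (limma adjusted p = 0.107). The mean was -0.0061 without replicate 4 and -0.088 with normexp fitted to all spots. Slc25a14 and Slc25a27 had means of -0.13 ± 0.20 and 0.11 ± 0.13. Slc25a14 was below Slc25a30 on 3 of 4 arrays (exact permutation p = 0.375).

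Slc25a46 encodes a member of the family that sits in the outer membrane and takes part in mitochondrial fission. Its probe A_55_P1991792 gave ratios of 0.44, 0.50, 0.30 and 0.21, a mean of 0.36 ± 0.13 and a limma adjusted p of 0.0554, under the fold limit. The other probe, A_52_P600304, gave 0.29, 0.44, 0.32 and 0.09, a mean of 0.29 ± 0.15 and an adjusted p of 0.111. Neither was called. In fasted liver the second probe cleared the background on each of 4 arrays, but in refed liver on 2 of 4, so it passed the filter only through the group in which it was higher, and it adds no support to the first. Its value also moved with the background step, to 0.81 with plain subtraction (limma adjusted p = 0.0602) and to 1.23 with Agilent's processed signals (adjusted p = 0.0359), and it was called in both.

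Carriers without a settled substrate had 2 measured probes. Slc25a34 (chr4:141174747-141174806, minus strand) gave ratios of 0.65, 1.34, 0.76 and 0.86, a mean of 0.90 ± 0.30 or 1.87-fold, and a limma adjusted p of 0.0164. Fasted livers lay between 9.48 and 9.75 and refed livers between 8.26 and 9.11, and the probe was called with each array left out in turn. Slc25a45 moved the other way, with ratios of -0.68, -0.32, -0.40 and -0.68, a mean of -0.52 ± 0.19 and a limma adjusted p of 0.0314, and at 1.43-fold was short of the limit for a call. It was called lower in 5 of 21 alternatives, with ratios of -0.60 with plain background subtraction and -0.61 with median centring. The 5 include the fit without the fold limit, in which its call was certain. Its fasted livers were all below its refed livers.

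The 9 probes that did not pass the filter were those of Slc25a2, Slc25a18, Slc25a21, Slc25a31, Slc25a35, Slc25a36, Slc25a41 and Slc25a43 and the second probe of Slc25a40. The probes of Slc25a2, Slc25a31, Slc25a41, Slc25a43 and the second of Slc25a40 were well above background on none of the 4 arrays in either condition, and those of Slc25a18, Slc25a35 and Slc25a36 on some of them. Slc25a21, the oxodicarboxylate carrier, was well above background on all arrays and was left out because its spot on replicate 2 carried an outlier flag.

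Counting single livers over all kept SLC25 probes, the 4 fasted levels lay wholly above or below the 4 refed levels for 14 of 40 probes, against 13.6% of all measured probes. Of the 8 called probes, 7 were among these 14, which also hold the Slc25a46 probe that was dim in refed liver. A dye term passed an adjusted p of 0.10 for 3 SLC25 probes (7.5%), those of Slc25a15, Slc25a44 and Slc25a33, and for 14.8% of all measured probes.

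Further carriers of the same family are named differently on the array. Of 7 measured probes for Ucp2, Ucp3, Mtch1, Mtch2 and Mcart1, 2 were called higher and none lower, both for Mcart1, now Slc25a51, which encodes the mitochondrial NAD carrier. They gave ratios of 0.92, 1.23, 0.97 and 0.96 (mean 1.02 ± 0.14, limma adjusted p = 0.0043) and of 0.70, 1.26, 0.76 and 0.53 (mean 0.81 ± 0.31, adjusted p = 0.0225). All 4 arrays of both probes were above 0. Ucp2, the uncoupling protein with the largest ratio here, had a mean of 0.24 ± 0.32 and did not pass. The array also names by older labels a carrier now called Slc25a47, a liver-enriched member of the family, which was found through its accession after values were seen. It gave ratios of 1.63, 2.66, 2.10 and 2.16, a mean of 2.14 ± 0.42 and a limma adjusted p of 0.0038, and was called higher. Slc25a48, found in the same way, had a mean of -0.01 ± 0.20.

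The partners of the carriers were described in the same way. Among 22 measured probes of the TIM22 import route, which inserts most carriers into the inner membrane, none was called by limma or by SAM, 4 had an unadjusted limma p under 0.05 (21.6% of all measured probes did), and the median ratio was -0.15. Only Fxc1, a small TIM chaperone now named Timm10b, passed the adjusted p, with ratios of -0.13, -0.55, -0.43 and -0.47 on one of its probes (mean -0.40 ± 0.18, limma adjusted p = 0.0615). Its other probe gave 0.06, 0.03, -0.31 and -0.41 (mean -0.16 ± 0.24, limma adjusted p = 0.451) and did not pass. Among 21 probes of enzymes that work with carriers in shuttles, the urea cycle and gluconeogenesis, 1 was called higher and none lower. That was Got1, the cytosolic aspartate aminotransferase of the malate-aspartate shuttle, with ratios of 2.14, 2.25, 1.45 and 0.47 (mean 1.58 ± 0.82, limma adjusted p = 0.0339). Of 22 probes of other mitochondrial channels and transporters, such as the VDAC pores and the sideroflexins, none was called in either direction by limma or by SAM, none passed the adjusted p, and 1 had an unadjusted p under 0.05.

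**Figure D5:**
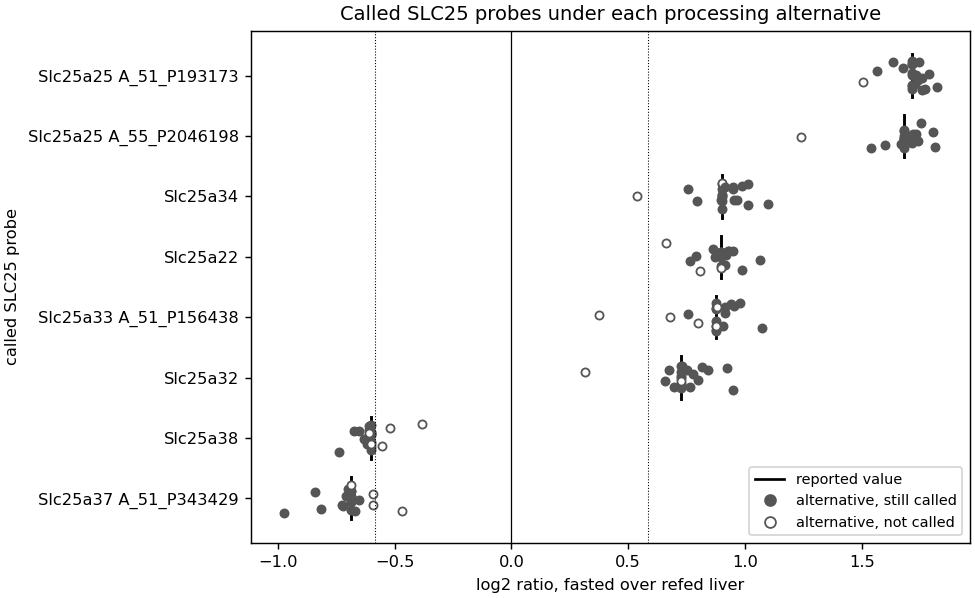
Log2 ratio of fasted over refed liver (x axis) of the 8 called SLC25 probes (y axis) as reported (black bar) and under each processing alternative (circles, open where the probe was not called), with dotted lines at 1.5-fold. Every circle keeps the sign of the reported value, and the Slc25a25 probes stay above 1.24 under all alternatives.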

How the data were processed

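RNA of 4 fasted and 4 refed livers, 200 ng each, was hybridised in pairs to 4 Agilent arrays in a dye swap. The authors deposited scanner files with intensity per spot, local background and flags (Feature Extraction 10.10.1.1 per the file headers, positions on mm9), and a table of log2 ratios normalized by loess in limma, with the background step not stated, used here as an alternative. No mm9 annotation was used, so exon or UTR positions of probes are not given.

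Median intensity was corrected by normexp (offset 50) without 55 of 177588 spots whose local background was over 3 times the array median, then by loess, in limma 3.58.1 under R 4.3.3. Flagged spots were dropped, spots of one probe averaged, and probes kept if well above background on all 4 arrays in at least one condition and with a ratio on every array. Single-channel levels were aligned by Aquantile. Ratios were tested two-sided with lmFit and eBayes, p-values were adjusted by Benjamini-Hochberg across the 19719 probes kept, and the limits for a call were those the study used with SAM, which was rebuilt as an alternative. A gene was called if any kept probe was. Related carriers were compared on the brightest probe of each gene. The fit was tested on simulated independent noise with planted changes larger than those of any called member but Slc25a25. Recovery of changes of the smaller sizes was not tested.

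Members, role groups and lists were chosen with earlier results of these data known. Values are given for called members, those with an adjusted p under 0.10, the 3 largest ratios left, paralog pairs, disagreeing probes and the largest ratio of a group without any, except for 1 member that enters the counts and is not reported here. Slc25a1, Slc25a10, Slc25a15 and Slc25a27 were added after their values were seen, as were Slc25a17, Slc25a26 and Slc25a29 in the closing observations. How livers were paired on arrays is not given in the sources used here, and 4 arrays limit the precision.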

Additional observations from a re-analysis of the deposited data

How the results depend on the processing

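Of the 8 SLC25 calls, both Slc25a25 probes held in 20 of 21 alternatives each, Slc25a34 and Slc25a32 in 19, Slc25a22 in 18, Slc25a37 in 17, and Slc25a33 and Slc25a38 in 16, and no called ratio changed sign. Some SLC25 probes near the limits gained a call: the second Slc25a33 probe in 7 alternatives, Slc25a45 in 5, Slc25a42 in 4 and the second Slc25a46 probe in 2 of 20. The counts for Slc25a33, Slc25a45 and Slc25a42 include the fit without the fold limit, which can add calls but not remove them. When normexp was fitted to all spots, no SLC25 probe was called in either direction (0 and 0, 0 genes, 9 of 40 at an unadjusted limma p under 0.05), and of all probes 5 were higher and 16 lower. In that fit the estimated background SD on replicates 3 and 4 rose to between 1075 and 4298 intensity units, from between 1.08 and 1.88 with the limit on local background. Over all probes, plain background subtraction gave 549 higher and 714 lower, and Agilent's processed signals 685 and 904, with 9 and 3 SLC25 probes. Median centring in place of loess gave 230 higher and 635 lower, so that 26.6% of calls were higher against 45.0%, and 6 and 3 SLC25 probes. Without the fold limit there were 931 higher and 1205 lower, with 10 and 4 SLC25 probes in 12 genes. A 2-fold limit left 99 and 132, with 2 and 0 SLC25 probes in 1 gene, Slc25a25. Leaving out each array in turn gave 208 to 413 higher and 256 to 525 lower, 5 to 8 SLC25 probes higher and 0 to 2 lower, and 4 to 8 genes. The lowest counts over all probes came without replicate 3, where 1 SLC25 probe was lower. Without replicate 4 none was lower by limma, although 4 had an unadjusted p under 0.05 and a negative ratio. Replicates 2 and 4 alone, an alternative chosen after seeing the data, left 1 SLC25 probe lower. Slc25a30, which was not called, changed sign with normexp on all spots (-0.088) and ran from -0.0061 without replicate 4 to 0.58 with each array left out. The cause of these changes was not tested. The rebuilt SAM, the dye term and separate channels with no replicate block each gave 6 SLC25 probes higher and 2 lower, and the deposited log2 ratios 7 and 2. With probes averaged per gene, 6 genes were called. The limits are that 4 pairs of livers allow no exact p below 0.125, that dim carriers have no value, and that fold changes of dim probes are understated by the offset.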

Other observations

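The comparison did not single out Slc25a17, Slc25a26 or Slc25a29, and of these only Slc25a17 had one sign on all arrays. Slc25a17, the peroxisomal carrier of coenzyme A and related cofactors, had log2 ratios of fasted over refed liver of -0.13, -0.32, -0.15 and -0.45 (mean -0.26 ± 0.15, limma adjusted p = 0.137). Slc25a29, a carrier of basic amino acids, had ratios of both signs with a mean of 0.03 ± 0.17. The 2 probes of Slc25a26, the S-adenosylmethionine carrier, had means of 0.09 ± 0.20 and 0.03 ± 0.17.

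Among enzymes that share substrates with the carriers, Cps1, which makes carbamoyl phosphate for the urea cycle, had ratios of 0.19, 0.35, 0.47 and 0.24 (mean 0.31 ± 0.12, limma adjusted p = 0.0764), under the fold limit. Pcx, pyruvate carboxylase, had ratios of 0.16, 0.57, 0.43 and 0.16 (mean 0.33 ± 0.20, adjusted p = 0.112) and did not pass.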
